A study of Mus musculus with 11 samples.

Results

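Of the 20058 places in the genome where IRF4 gave a peak in at least 1 of 6 chromatin immunoprecipitation sequencing (ChIP-seq) libraries of stimulated mouse B cells, 15869 were called in a single library. Among these, 1694 (10.7%) lay on a stable PU.1 site, that is, less than 200 bp from a PU.1 peak of both day 3 and day 1, and these 1694 regions are the members described here. They were selected on measured values: IRF4 peak positions of the 6 libraries were merged within 200 bp, a region had to be called in exactly 1 library, and its PU.1 peaks had to be called on both days. A further rule, to drop regions within 200 bp of the authors' combined IRF4 list of either day, removed 0 regions. Another 13009 single-library regions lay off the PU.1 sites of both days, and 1166 lay on a PU.1 site of only one day. The places with IRF4 in 2 or more libraries on stable PU.1 sites numbered 1945. The number of IRF4 libraries and the presence of PU.1 were fixed by the selection and are not findings.

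The study set the genome binding of IRF4 and PU.1 after differentiation towards plasma cells (day 3) against that of activated cells before it (day 1). All groups were primary B cells from the spleen of B1-8i animals (anti-NP gene targeted, 129 background), cultured with NP-Ficoll, CD40L, IL-2, IL-4 and IL-5. Day 3 gave 3 libraries for IRF4 and 2 for PU.1, and day 1 gave the same numbers. Whether replicates are separate mice or cultures is not in the labels; a p-value here covers the variation among these libraries alone, and that may be technical. The labels name no sort for plasma cells, and peak lists hold no expression, so cell types could not be checked against markers.

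IRF4 is a transcription factor that lymphocytes induce on activation and that plasma cells need. Alone it binds DNA weakly, and in B cells it often binds together with the Ets factor PU.1 on a joint sequence, the Ets-IRF composite element (EICE), in which the Ets core GGAA is followed by the IRF core GAAA. It can also bind beside AP-1 factors on AP-1-IRF composite elements (AICE), or as a pair of IRF molecules on interferon-stimulated response elements (ISRE).

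The sequence of the strongest member of each IRF4 library with an EICE inside the 100 bases printed is shown first, because the EICE was the motif whose share differed most between the members and the single-library regions off PU.1. Each is 100 bases of the plus strand of mm9 around the IRF4 peak position, written 5′ to 3′, and capitals mark the EICE (GGAANNGAAA) or, where it lies on the minus strand, its reverse complement.
Arid3b, day 3 replicate 1, chr9:57648538-57648637: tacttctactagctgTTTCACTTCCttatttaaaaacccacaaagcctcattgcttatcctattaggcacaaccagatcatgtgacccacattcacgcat
Ipo11, day 3 replicate 2, chr13:107550377-107550476: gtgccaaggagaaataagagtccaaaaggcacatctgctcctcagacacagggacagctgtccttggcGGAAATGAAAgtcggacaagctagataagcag
Klhdc4, day 3 replicate 3, chr8:124367385-124367484: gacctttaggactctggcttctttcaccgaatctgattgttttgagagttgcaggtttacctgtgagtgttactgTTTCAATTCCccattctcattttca
Abcb4, day 1 replicate 1, chr5:8917215-8917314: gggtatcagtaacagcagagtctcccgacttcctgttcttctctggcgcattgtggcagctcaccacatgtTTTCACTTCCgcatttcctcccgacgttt
Ptpn18, day 1 replicate 2, chr1:34529489-34529588: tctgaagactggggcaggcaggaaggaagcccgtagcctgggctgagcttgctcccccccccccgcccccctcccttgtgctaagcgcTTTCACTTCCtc
Rasgef1b, day 1 replicate 3, chr5:99698231-99698330: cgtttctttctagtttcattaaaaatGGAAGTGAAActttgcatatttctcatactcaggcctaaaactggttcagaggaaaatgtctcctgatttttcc
Of these 6 places, those near Arid3b, Abcb4, Ptpn18 and Rasgef1b hold the same element, GGAAGTGAAA.

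For contrast, a member with an AP-1 site (TGAGTCA or TGACTCA) and no EICE within 100 bp is shown with its AP-1 site in capitals, again on the plus strand of mm9. It is the highest ranked of those whose AP-1 site lies inside the 100 bases printed; the member at Dock8, described further on, ranks higher and has its AP-1 site outside them.
Alkbh1, day 1 replicate 2, chr12:88767445-88767544: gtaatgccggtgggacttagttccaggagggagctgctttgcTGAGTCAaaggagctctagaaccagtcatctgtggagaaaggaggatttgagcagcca

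The members were spread unevenly over the libraries. There were 144, 24 and 629 members in day 3 replicates 1, 2 and 3, and 7, 496 and 394 members in day 1 replicates 1, 2 and 3. Day 3 replicate 3 and day 1 replicates 2 and 3, which also had the longest peak lists (5595, 9326 and 8929 peaks), together hold most of them. The other lists had 2784 and 1408 peaks in day 3 replicates 1 and 2 and 825 peaks in day 1 replicate 1. Day 3 and day 1 overlap in the number of members. No read counts come with the lists, and the depth of each library is unknown. The lists also end at different levels: the lowest fold enrichment over input, the authors' own value for each peak, was 16.4, 16.9 and 15.04 in the day 3 libraries and 21.0, 20.9 and 21.9 in the day 1 libraries.

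Read as a share of each library's single-library regions, the order was another one. Members made up 37.1%, 34.8% and 19.6% of the single-library regions of day 3 replicates 1, 2 and 3, and 35.0%, 7.99% and 6.60% of those of day 1 replicates 1, 2 and 3. The shares were lowest in the 3 libraries with the longest lists. These shares are set by the selection and carry no test.

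**Figure D1:**
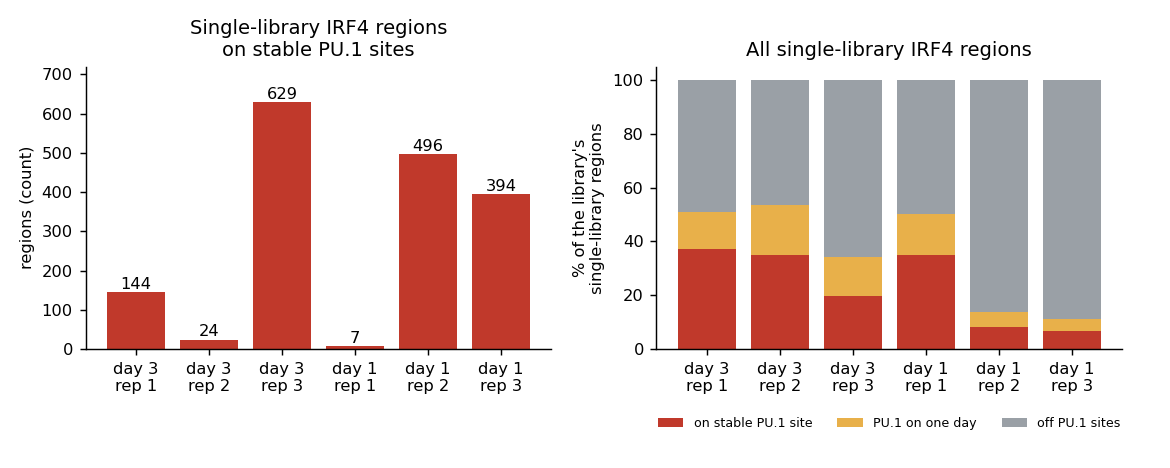
Left, the number of members in each IRF4 library; right, the percentage of each library's single-library IRF4 regions that lie on a stable PU.1 site, on a PU.1 site of one day or off PU.1 sites. Day 3 replicate 3 has 629 members and day 1 replicate 1 has 7, while the share on stable PU.1 sites is lowest, 6.60%, in day 1 replicate 3.

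Most members were weak to middling peaks of their own list. A percentile of 100 stands for the strongest peak of a list. The median member stood at percentile 26.0, 19.4 and 44.2 in day 3 replicates 1, 2 and 3, and at 23.0, 51.3 and 53.1 in day 1 replicates 1, 2 and 3. Shared regions on stable PU.1 sites stood higher in every library, with medians of 55.2 to 76.4 in the day 3 libraries and 54.1 to 82.6 in the day 1 libraries. Single-library regions off PU.1 had medians of 22.3, 23.3 and 29.99 in the day 3 libraries and 31.97, 34.8 and 35.9 in the day 1 libraries. Members stood above these regions in day 3 replicates 1 and 3 and day 1 replicates 2 and 3. They stood below them in day 3 replicate 2 and day 1 replicate 1. A few members were strong peaks: 17 members of day 3 replicate 3, 8 of day 1 replicate 2 and 12 of day 1 replicate 3 were among the top 10% of their list. The other 3 libraries had 0 members there.

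Members at the limits of the selection are given once. The farther of the day 3 and day 1 PU.1 peak positions lay a median of 51 bp from the IRF4 position, and 826 members (48.8%) had both under 50 bp. Just inside the limit, 95 members lay 150 to 199 bp away, with an EICE in 4.21%. Just outside it, 71 single-library regions lay 200 to 249 bp away, with an EICE in 2.82%. In 45 members a peak of another IRF4 library lay 200 bp or more but under 400 bp away. The next step in library number, regions of exactly 2 libraries on stable PU.1 sites, held 698 regions with an EICE in 29.4%, beside 21.7% of the members.

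Sequence was not used by the selection, but PU.1 peaks were, and the EICE holds the Ets core. At stable PU.1 sites with 0 IRF4 libraries, in windows around the PU.1 position, 10.2% held an EICE. Motifs were counted on both strands in the 200 bp around the IRF4 peak position. Over all members together, 367 of 1694 held an EICE (21.7%, Wilson 95% interval 19.8 to 23.7), against 35.4% of the shared regions on stable PU.1 sites and 3.02% of the single-library regions off PU.1. Of all 20058 IRF4 regions, 9.39% held an EICE and 12.2% an AP-1 site. These intervals cover counting error only, and members of 1 library share that library.

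By library, an EICE was found in 29.2%, 29.2% and 21.8% of the members of day 3 replicates 1, 2 and 3, and in 14.3%, 19.8% and 20.8% of those of day 1 replicates 1, 2 and 3. In the same libraries it was found in 5.26%, 18.8% and 5.40% of the day 3 and 10.0%, 2.63% and 2.28% of the day 1 single-library regions off PU.1. PU.1 peaks were required of the members and kept out of the regions off PU.1, so this comparison does not separate IRF4 from PU.1. These classes also differed in median IRF4 percentile, as given above, and the part of this in their motif differences was not tested. The members' share was higher in 6 of 6 libraries. It averaged 22.5% ± 5.78 in members against 7.39% ± 6.21 in the regions off PU.1 (SD, n = 6 libraries), a difference of 15.1 percentage points. The exact sign-flip permutation test over the 6 differences, two-sided, gave its smallest possible p of 0.03125, which is 0.0625 after Benjamini-Hochberg adjustment over 8 features. The gap to the regions off PU.1 was narrowest in day 1 replicate 1, where 1 of 7 members held an EICE. With only the stronger 50% of each IRF4 list the mean difference was 7.26 points (exact sign-flip permutation p = 0.469, 0.75 adjusted).

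The shared regions on stable PU.1 sites held an EICE more often than the members in every library. Their shares were 37.7%, 43.3% and 35.7% in the day 3 libraries and 45.6%, 35.2% and 36.0% in the day 1 libraries, with a mean of 38.9% ± 4.45 (SD, n = 6). Members minus shared regions gave -16.4 percentage points on average, with members lower in 6 of 6 libraries (exact sign-flip permutation p = 0.03125, 0.0625 adjusted over 10 features). Shared regions enter several libraries, so these 6 differences are not independent. No feature passed an adjusted 0.05 in either comparison.

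The PU.1 recognition sequence GAGGAAGT was found more often in members than off PU.1 in each library. PU.1 peaks, though not this sequence, were required of the members and kept out of the regions off PU.1. It was present in 19.4%, 12.5% and 18.8% of the members of the day 3 libraries and in 14.3%, 14.7% and 16.2% of those of the day 1 libraries. Off PU.1 it was present in 2.11%, 0% and 1.61% in the day 3 libraries and 10.0%, 1.66% and 1.39% in the day 1 libraries. The mean difference of 13.2 percentage points was positive in 6 of 6 libraries. As the selection set the classes apart by PU.1 peaks, it is given with no test. Over all members together 16.9% held this sequence, beside 26.9% of all stable PU.1 sites, counted there around the PU.1 position. Members minus shared regions gave -0.808 points on average, with 3 libraries higher and 3 lower (exact permutation p = 0.594, 0.742 adjusted), and single differences ran from -5.27 to 1.43. The direction of that small difference turned under several alternative settings.

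AP-1 sites were found less often in the members than off PU.1 in each library. Their shares were 4.86%, 4.17% and 5.56% in the day 3 libraries and 14.3%, 9.27% and 8.63% in the day 1 libraries. Regions off PU.1 held one in 24.7%, 9.38% and 8.15% in the day 3 libraries and 20%, 10.6% and 10.2% in the day 1 libraries. Members minus regions off PU.1 gave -6.06 percentage points on average, lower in 6 of 6 libraries (7.80% ± 3.79 against 13.9% ± 6.82, SD, n = 6; exact sign-flip permutation p = 0.03125, 0.0625 adjusted). In the 3 libraries with most members, day 3 replicate 3 and day 1 replicates 2 and 3, the gap was smaller than in the other 3. It was widest in day 3 replicate 1, at -19.9 points. Day 3 replicate 2 had 1 of 24 members against 3 of 32 regions off PU.1, and day 1 replicate 1 had 1 of 7 against 2 of 10. With IRF4 peaks merged within 100 bp the mean difference was -4.12 points (exact sign-flip permutation p = 0.25). In a 100 bp sequence window it was -3.63 points (exact sign-flip permutation p = 0.3125). With only the stronger 50% of each IRF4 list the mean difference turned to 9.65 points, a value that rests on day 1 replicate 1, which then has 1 member, with an AP-1 site. Against the shared regions the mean AP-1 difference was -3.64 points, lower in 5 of 6 libraries (exact sign-flip permutation p = 0.0625, 0.104 adjusted). Those 6 differences are not independent, as said above. The AP-1-IRF composite element was scarce, in 6 of 1694 members (0.354%) and in 26 of the 1945 shared regions (1.34%). The members of 3 libraries held 0, among them the libraries with 7 and 24 members, where a share this low could hardly be seen, so no direction by library is read from it.

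ISRE sequences (GAAANNGAAA) gave no common direction against the regions off PU.1. Members held one in 13.2%, 4.17% and 10.97% in the day 3 libraries and in 14.3%, 6.45% and 5.58% in the day 1 libraries. The regions off PU.1 held one in 16.8%, 25% and 14.3% in the day 3 libraries and in 10.0%, 3.54% and 3.19% in the day 1 libraries. Members were lower in the 3 day 3 libraries and higher in the 3 day 1 libraries (exact sign-flip permutation p = 0.625 over the 6). Against the shared regions the mean ISRE difference was 0.936 points, with 3 libraries higher and 3 lower (exact sign-flip permutation p = 0.6875, 0.764 adjusted). A control sequence with the bases of the EICE in reversed order, AAAGNNAAGG, was found in 2.18% of the members and in 2.04% of the regions off PU.1. It differed by less than the spread between libraries (0.348 points, exact sign-flip permutation p = 0.5, 0.571 adjusted).

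**Figure D2:**
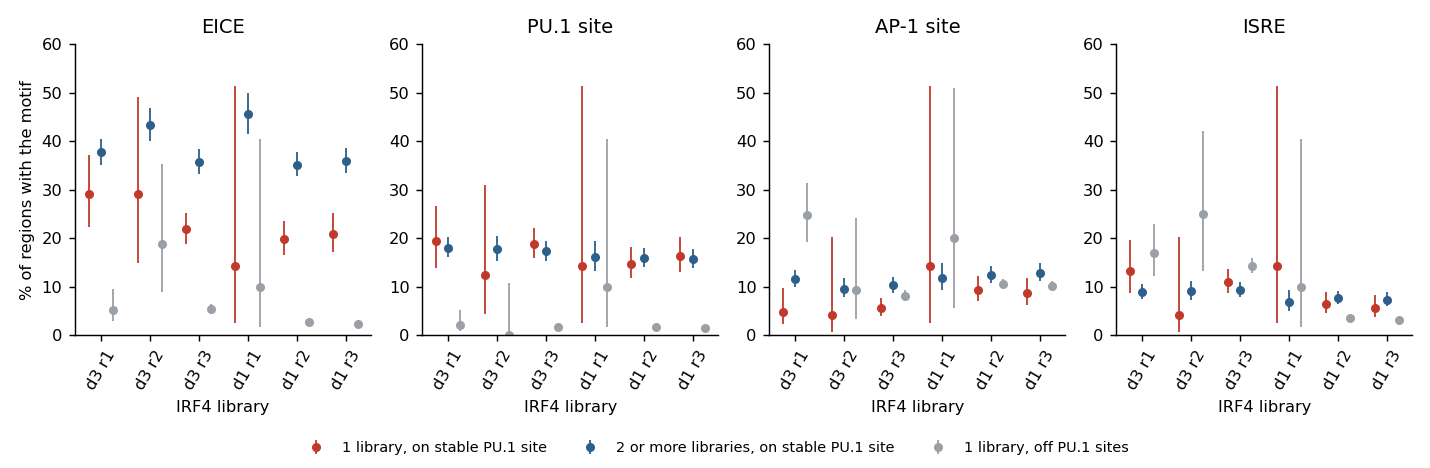
Percentage of regions holding an EICE, a PU.1 site, an AP-1 site or an ISRE in the 200 bp around the IRF4 peak position, by IRF4 library (d3 is day 3, d1 is day 1, r is replicate), with Wilson 95% intervals. In the EICE panel the members lie above the single-library regions off PU.1 and below the shared regions in each library, at 14.3% to 29.2%.

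The motifs overlapped little. Of the 367 members with an EICE, 50 also held a PU.1 site, 16 an AP-1 site and 26 an ISRE; an ISRE and an EICE share the IRF core, so one stretch of DNA can be read as both. A further 201 members held only the PU.1 site. None of the 5 motifs was found within the window in 904 members (53.4%), which says only that these letters are not in this window.

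The EICE lay close to the IRF4 peak position. Counted by its centre, so that a match may reach over the window's edge, it was found within 100 bp at 374 members, and in 133 of these (35.6%) within 25 bp, with a median distance of 36.5 bp. The shared regions on PU.1 sites had a median of 28.5 bp and the regions off PU.1 one of 51.5 bp. Windows of the same length 2 kb to either side of the members held an EICE in 1.95%, close to the control sequence at 1.98%, and an AP-1 site in 3.04%.

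**Figure D3:**
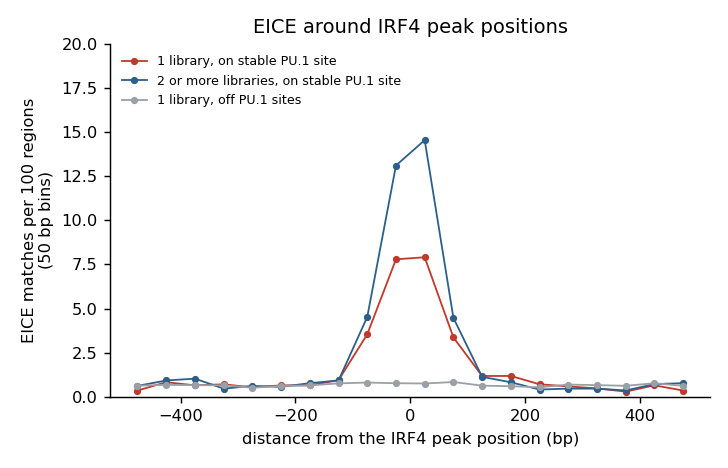
EICE matches per 100 regions in 50 bp bins of distance from the IRF4 peak position, for members, shared regions on stable PU.1 sites and single-library regions off PU.1. The members reach 7.79 and 7.91 matches per 100 regions in the bins on either side of the peak position, between the other groups, and fall to under 1 match beyond 200 bp.

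The variants of the EICE also resembled those of the shared regions. GGAAGTGAAA was the commonest form in members, 133 of 375 matches (35.5%), and GGAACTGAAA came next with 86 (22.9%). In the shared regions these forms made up 36.8% and 29.96% of 711 matches. In the regions off PU.1, GGAAGTGAAA made up 7.00% of 400 matches and GGAACTGAAA 14.8%, and the matches were spread more evenly over the other forms. These shares are a description over matches and carry no test.

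In the 3 libraries with most members, the EICE share was higher among the stronger members of the list than among the weaker ones. Among members in the stronger 50% of their list, day 1 replicate 2 had an EICE in 25.6% of 254, against 13.6% of 242 in the weaker 50% (intervals 20.6 to 31.3 and 9.88 to 18.5). Day 3 replicate 3 had 24.1% in the stronger and 20.1% in the weaker part, and day 1 replicate 3 had 21.8% in the stronger and 19.7% in the weaker part. It went the other way in day 3 replicate 1, where the shares were 27.3% of 22 stronger and 29.5% of 122 weaker members, and the remaining libraries had 1 stronger member each. Only in day 1 replicate 2 did the counting intervals not overlap; the difference between libraries was not tested.

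Between the days, the EICE share of the members was higher on day 3 and the AP-1 share lower in these libraries, but 3 against 3 libraries cannot pass 0.05. The EICE share was 26.7% ± 4.26 on day 3 against 18.3% ± 3.50 on day 1 (SD, n = 3 each), a difference of 8.42 points with no overlap between the groups; the exact permutation p of 0.1 is the smallest this design allows. Without day 3 replicate 1, with the members chosen again, the difference was 0.437 points. The AP-1 share was 4.86% ± 0.699 on day 3 against 10.7% ± 3.10 on day 1, a difference of -5.87 points, again without overlap (exact permutation p = 0.1). Leaving out single libraries moved that difference between -8.36 and -3.93 points. With only the stronger 50% of each IRF4 list the differences were 1.34 points for the EICE and -38.0 for AP-1 sites, again with 1 member in day 1 replicate 1. The lists of the 2 days end at different fold enrichments, as given above, and the part of this in the differences was not tested.

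In the shared regions on stable PU.1 sites the EICE share was 38.9% on day 3 and 38.9% on day 1, many of these regions being counted on both days. Their AP-1 share was 10.5% on day 3 and 12.4% on day 1 (exact permutation p = 0.1). The members' PU.1 site, GC content, share near a transcript start and distance to PU.1 overlapped between the days.

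Seen from the PU.1 side, there were 14132 stable PU.1 sites, and 12.1% of them had an IRF4 peak in exactly 1 library. Some 1688 sites had a member on them. IRF4 was called in 0 libraries at 10485 sites, in 1 at 1714, in 2 at 701, in 3 at 394, in 4 at 334, in 5 at 297 and in 6 at 207. Sites with 1 library were thus the largest class among those with any IRF4 peak.

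Of all stable PU.1 sites 15.3% held an EICE, and the share was higher at sites with more libraries, apart from 3 and 4: 10.2% with 0 libraries, 22.6% with 1, 30.1% with 2, 36.0% with 3, 35.3% with 4, 45.8% with 5 and 46.4% with 6. The intervals for 0 libraries (9.59 to 10.8) and for 1 library (20.7 to 24.7) did not overlap, nor did those for 1 library and 2 libraries (26.8 to 33.6). Those for 3 and 4 libraries overlapped, as did those for 5 and 6. All these intervals cover counting error over sites only. The number of IRF4 libraries was used by the selection, so the shares are a description with no test. Here the window is around the PU.1 position. The plain PU.1 sequence ran the other way at the low end, with 29.7% of sites without IRF4 and 19.2% of sites with 1 library. AP-1 sites were found at 5.21% of sites with 0 libraries, 6.77% with 1 and 10.1% with 6. The control sequence stayed between 0.483% and 2.79% in all classes.

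**Figure D4:**
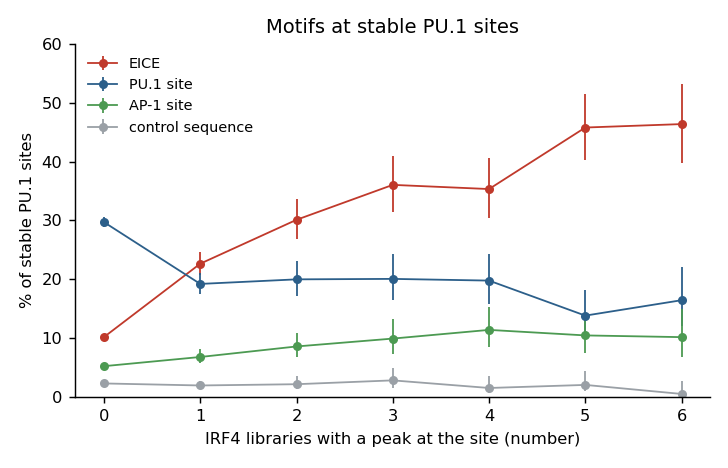
Percentage of stable PU.1 sites holding an EICE, a PU.1 site, an AP-1 site or the control sequence, by the number of IRF4 libraries with a peak there (0 to 6), with Wilson 95% intervals. The EICE share is 22.6% at sites with 1 library, between 10.2% without IRF4 and 46.4% with 6 libraries.

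Sites with 1 IRF4 library were also intermediate in PU.1 strength. Their median PU.1 fold enrichment was 101 and 89.1 in day 3 PU.1 replicates 1 and 2, and 64.6 and 80.7 in day 1 PU.1 replicates 1 and 2. Sites with 2 or more IRF4 libraries had 229 and 232 on day 3 and 145 and 211 on day 1, and sites with none had 61.2 and 48.3 on day 3 and 38.3 and 51.6 on day 1. In all 4 PU.1 libraries the order was the same. On the percentile scale, averaged over the 4 PU.1 lists, the members were below the shared regions in 6 of 6 IRF4 libraries. The means were 83.4 ± 4.84 against 94.5 ± 1.36 (SD, n = 6). Both classes had to have PU.1 peaks on both days, so this too is given with no test. Shared regions enter several libraries, so these 6 differences are not independent either. The median distance from the IRF4 to the PU.1 position averaged 35.0 bp in members against 27.6 bp in the shared regions; the selection used this distance, so it is given with no test, and with PU.1 required within 100 bp the difference of 7.46 bp became 2.96 bp.

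PU.1 strength and the EICE moved together among the sites with 1 IRF4 library. All stable PU.1 sites were split into 5 equal classes by PU.1 strength, from weakest to strongest. The sites with 1 library numbered 175, 261, 310, 487 and 481 in these classes. An EICE was found at 13.1%, 18.8%, 20.3%, 25.7% and 26.6% of them. At the 59, 120, 179, 351 and 1224 sites with 2 or more libraries the shares were 10.2%, 14.2%, 23.5%, 32.8% and 42.7%. At sites without IRF4 they were 8.45%, 9.61%, 11.7%, 11.5% and 9.80%. In the weakest 4 classes the sites with 1 library and those with 2 or more overlapped in their intervals, and in the strongest class they did not (22.9 to 30.7 and 40.0 to 45.5). Sites with 1 library were above those without IRF4 in each class, and in every class but the weakest their intervals did not overlap. The intervals again cover counting error over sites only, and no test was made. How far PU.1 strength accounts for the difference between members and shared regions was not tested.

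**Figure D5:**
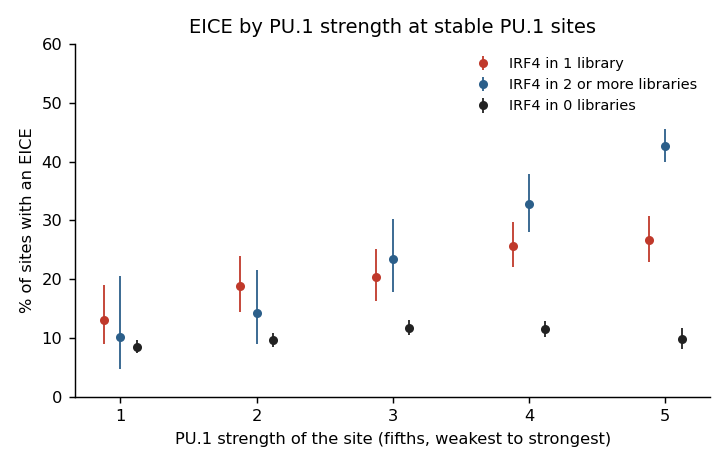
Percentage of stable PU.1 sites holding an EICE in 5 classes of PU.1 strength (weakest to strongest, mean percentile over 4 PU.1 libraries), for sites with IRF4 in 1 library, in 2 or more and in 0, with Wilson 95% intervals. Sites with 1 library run between 13.1% and 26.6%; sites without IRF4 stay between 8.45% and 11.7%.

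The members lay in promoters more often than the shared regions, at a share near that of stable PU.1 sites without IRF4. Counted from the PU.1 position, 20.6% of stable PU.1 sites with 0 IRF4 libraries lay within 1 kb of a transcript start. With 1 library the share was 18.8%, and with 6 it was 9.18%. Within 1 kb of a transcript start of a protein-coding gene there were 323 members (19.1%), 687 (40.6%) lay in introns, 51 in exons and 633 (37.4%) between genes. By library the promoter share averaged 19.5% ± 5.30 in members against 11.3% ± 1.18 in shared regions (SD, n = 6), higher in 6 of 6 libraries (exact sign-flip permutation p = 0.03125, 0.0625 adjusted). Against the regions off PU.1, at 14.5% ± 3.72, it was higher in 5 of 6 (exact permutation p = 0.0938, 0.15 adjusted). GC content of the window was 47.7% in members and 45.9% off PU.1, higher in 6 of 6 libraries (exact sign-flip permutation p = 0.03125, 0.0625 adjusted). A peak of the authors' combined IRF4 lists lay within 10 kb of 270 members (15.9%), against 9.65% of the single-library regions off PU.1 and 12.3% of the stable PU.1 sites without IRF4.

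Individual places are given below with the authors' fold enrichment, coordinates on mm9 as deposited, and gene context from the GENCODE M1 annotation. Nearness does not show that a peak acts on a gene. In day 3 replicate 1 the strongest member (44.3-fold) lay 83 kb from the nearest transcript start, that of AI427809. The second, at chr9:57648482-57648702 in an intron of Arid3b, which encodes an AT-rich DNA-binding factor, had 44.0-fold IRF4 enrichment and the EICE shown above. Its PU.1 enrichment was 481 and 427-fold in the 2 day 3 libraries and 172 and 232-fold in the 2 day 1 libraries, well above the medians for sites with 1 IRF4 library. The third, near Rpl37-ps1, had 31.9-fold and an ISRE.

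The places of day 3 replicate 2 were weaker. Its strongest member, at 25.9-fold, lay in an intron of Hivep3, a large zinc finger gene. The second lay 76 kb from the start of Ipo11 at 23.7-fold with the EICE shown above, and the third 24.8 kb from the start of Npc2 at 21.6-fold, also with an EICE. Near Npc2 the PU.1 enrichment was 33.8 and 199.8-fold in the 2 day 3 libraries and 100.4 and 81.6-fold in the 2 day 1 libraries, so the day 3 replicates differed there more than the day 1 replicates.

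In day 3 replicate 3 the strongest member, at 66.7-fold, sat on the promoter of Lrrc16a, a gene of actin filament capping (chr13:24297562-24298764), without a motif of those searched. The second lay 5.3 kb from Syt13, at 61.2-fold with an ISRE. The third, in an intron of Klhdc4 at 56.6-fold, holds the EICE GGAATTGAAA, one of 6 members' matches of that form. PU.1 at Klhdc4 was 43.3 and 111-fold on day 3 and 17.1 and 17.3-fold on day 1.

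Day 1 replicate 1 had 7 members in all. The strongest, at 30.7-fold, lay in the promoter of Entpd5 with an AP-1 site; the next, in an intron of Chst15, had 24.3-fold and a PU.1 site, and the third, in an intron of Tmod3, had 23.6-fold. Its only EICE was at Abcb4, at 23.3-fold.

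In day 1 replicate 2 the strongest member lay in an intron of Dock8, a guanine nucleotide exchange factor of lymphocyte migration, at chr19:25149281-25149662 with 70.1-fold enrichment and an AP-1 site. PU.1 there was 57.7 and 37.9-fold on day 3 and 35.6 and 46.1-fold on day 1, below the medians for sites with 1 IRF4 library in all 4 PU.1 libraries. The next was the AP-1 place in an exon of Alkbh1 shown above, at 59.2-fold. The third, at the promoter of Tec, a tyrosine kinase related to Btk, had 57.6-fold and no motif, and its IRF4 position lay 136 and 118 bp from the PU.1 positions of day 3 and day 1.

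Day 1 replicate 3 led with the EICE place 16.3 kb from the start of Rasgef1b (chr5:99698199-99698398), at 66.7-fold. Its PU.1 was weak, 26.1 and 36.9-fold on day 3 and 36.0 and 26.7-fold on day 1. The second lay in an intron of Bach2 (chr4:32508605-32508902), a repressor that holds back plasma cell differentiation, at 61.1-fold. PU.1 there was 33.5 and 26.5-fold on day 3 and 24.4 and 48.6-fold on day 1. The third lay 58.1 kb from the start of Bcl11a, a zinc finger factor needed for B cell development, at 60.8-fold with an ISRE. The 3 strongest members of each of day 1 replicates 2 and 3 can be set against the medians of sites with 1 IRF4 library. PU.1 was below these medians in all 4 PU.1 libraries at Dock8, Alkbh1, Tec, Rasgef1b and Bach2. At Bcl11a it was above them in all 4, at 139 and 173-fold on day 3 and 124 and 232-fold on day 1.

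A gene was counted as having a member when one lay in it or within 20 kb. Of 22238 protein-coding genes 1959 (8.81%) had one, and 43.2% had a stable PU.1 site. Among the genes with a stable PU.1 site, 20.4% had a member. Lists of B cell genes are read against both shares, since PU.1 is part of the selection, and longer genes have more room for a region. Shared IRF4 regions, counted the same way, were found at 9.06% of all genes. They were found more often than members at every list below but T and NK cell markers and neuron and liver genes (5% each). For example, they were found at 40% of NF-kB and activation, 50% of Ets and IRF factor and 55% of cytokine receptor genes.

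B cell receptor and identity genes had members most often, 12 of 20 (60%), and shared IRF4 regions at 14 of 20 (70%). All 20 had a stable PU.1 site, and their median length was 58.1 kb against 15.5 kb for all genes. The strongest by rank was a promoter inside Ikzf1, the lymphoid factor Ikaros, at 36.8-fold in day 1 replicate 2. An intron of Dapp1, an adaptor below the receptor, had 29.5-fold in day 3 replicate 3, with PU.1 at 259 and 326-fold on day 3 and 271 and 279-fold on day 1. The kinase gene Lyn had a member in each of day 1 replicates 3 and 2, at 28.2 and 27.6-fold, at different places of the gene. The promoter of Cd79b, a signalling chain of the receptor, had 22.2-fold in day 1 replicate 2.

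The NF-kB and activation list had members at 7 of 20 genes (35.0%), and at 7 of the 17 with a stable PU.1 site (41.2%). Tnfaip3, which encodes the NF-kB inhibitor A20, had the strongest, 18.3 kb upstream at chr10:18753472-18753966 with 38.7-fold in day 3 replicate 3 and an EICE. An intron of Nfkbie, which encodes an inhibitor of NF-kB, had 36.8-fold in day 1 replicate 2, and an internal promoter of Nfkb1, a subunit gene, had 28.7-fold in the same library with an EICE and a PU.1 site. Egr1, an immediate early gene, had one 4.8 kb upstream at 26.8-fold. At Nfkb1 PU.1 was 518 and 321-fold on day 3 and 266 and 397-fold on day 1, while at Tnfaip3 it was 25.7 and 55.6-fold on day 3 and 30.8 and 46.8-fold on day 1.

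Of 17 genes for antigen presentation and costimulation, 5 had a member (29.4%) and all 17 had a stable PU.1 site. The promoter of Ctss, which encodes the protease cathepsin S of the class II pathway, had 31.7-fold in day 3 replicate 3, with an ISRE and a PU.1 site. The promoter of Cd40, the receptor of a ligand given in these cultures, had 37.5-fold in day 1 replicate 2, with PU.1 at 856 and 605-fold on day 3 and 491 and 782-fold on day 1. An internal promoter of Ciita, the regulator of class II genes, had an EICE and 22.0-fold in day 3 replicate 1. One place at chr17:34311156-34311437, at 35.2-fold in day 1 replicate 3, lay within 20 kb of H2-DMb1, Psmb9 and Tap1 and is counted for each.

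Germinal centre genes had members at 3 of 20 (15%), beside 8.81% of all genes, and at 3 of the 18 with a stable PU.1 site (16.7%), beside 20.4% of all such genes. Bach2 had 3, in 3 different libraries: the one of day 1 replicate 3 given above, one with an EICE at 30.4-fold in day 3 replicate 3 and one at 22.2-fold in day 1 replicate 2. The others were a promoter of Lmo2, at 33.3-fold with an EICE in day 1 replicate 2, and an intron of the follicle-homing receptor Cxcr5, at 25.7-fold in day 3 replicate 1. Plasma cell genes had members at 4 of 19 (21.1%, with Mzb1 not matched), and at 4 of the 14 with a stable PU.1 site (28.6%). These were introns of Atf6, a factor of the unfolded protein response, at 30.9-fold with an EICE in day 1 replicate 3, and of Prdm1, which encodes Blimp-1, the central plasma cell regulator, at 16.7-fold with an AP-1 and a PU.1 site in day 3 replicate 3. The other 2 were upstream of the homing receptor Cxcr4, at 23.3-fold in day 1 replicate 3, and at a promoter of Tnfrsf13b, the receptor TACI, at 18.4-fold in day 3 replicate 2. At Tnfrsf13b PU.1 was 921 and 697-fold on day 3 and 552 and 687-fold on day 1.

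Interferon response genes had members at 4 of 23 (17.4%), among them Tap1 and Psmb9 through the shared place. Of the 16 with a stable PU.1 site 25% had one, beside 20.4% of all such genes. Trim30a had an intronic one with an ISRE at 29.9-fold in day 3 replicate 1, and the signal transducer gene Stat2 one 6.4 kb upstream at 24.3-fold in day 3 replicate 3. Ets and IRF factor genes had members at 6 of 20 (30%), and at 6 of the 17 with a stable PU.1 site (35.3%). Beyond the end of Irf2, 112.1 kb from its start, one had 32.3-fold in day 1 replicate 3, and an intron of the same gene had 27.4-fold with an EICE and an AP-1 site in day 3 replicate 3. The gene of PU.1 itself, Sfpi1, had one 11.8 kb upstream, at the promoter of Slc39a13, with 32.7-fold and an AP-1 site in day 1 replicate 2, and PU.1 there was 559.7 and 279-fold on day 3 and 228 and 368-fold on day 1. An intron of the Ets gene Elf1 had 23.4-fold in day 3 replicate 3.

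Cytokine receptor and signalling genes had members at 5 of 20 (25%). Of the 19 with a stable PU.1 site 26.3% had one, beside 20.4% of all such genes. The inhibitor gene Socs3 had one on either side of its start, at 41.0-fold in day 1 replicate 2 and 25.8-fold in day 1 replicate 3, and the promoter of Il7r, the IL-7 receptor, had 18.5-fold in day 3 replicate 3. One place with an ISRE, at 24.5-fold in day 1 replicate 3, lay between Il4ra and Il21r and counts for both. In the lists of other cell types members were found at 2 of 20 genes each (10.0%): Fcgr1 and Emr1 among myeloid markers, Ctla4 and Gata3 among T and NK cell markers, and Rbfox3 and Map2 among neuron and liver genes. The Emr1 place also counts for Vav1. Those shares lie near the 8.81% of all genes.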

How the data were processed

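The deposited peak lists were used, 1 per IRF4 library and 1 per PU.1 library, with the authors' combined list per factor and day. The authors mapped reads to mm9 and called peaks over an input library with QuEST, per the series' design text; no source used here gives versions, thresholds or the aligner. The value of a peak is the authors' deposited fold enrichment, a linear ratio to input, used only to describe, rank or filter within a list. The input DNA, a pool of peripheral or immature B cell preparations, was not analysed here. The members, gene lists and tests were chosen with earlier results of these data known.

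IRF4 peak positions were merged by single linkage under 200 bp. Motifs were searched in mm9 within 100 bp of the position: EICE GGAANNGAAA, ISRE GAAANNGAAA, AP-1 TGAGTCA or TGACTCA, PU.1 GAGGAAGT, the control AAAGNNAAGG, and AICE, both strands. ISRE and EICE share the IRF core, AICE holds an AP-1-like sequence, and the PU.1 site holds the Ets core. They were found in 6.90% (ISRE), 5.19% (PU.1), 1.22% (AICE) and 2.05% (control) of all IRF4 regions, and in 5.99% (ISRE), 6.02% (AP-1), 26.9% (PU.1), 0.382% (AICE) and 2.19% (control) of the stable PU.1 sites. Whether deposited positions count from 0 or 1 is not given; sequence coordinates count from 1.

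Differences between classes were tested over 6 libraries and days over 3 against 3 libraries, with exact permutation tests, two-sided, and Benjamini-Hochberg adjustment; regions were not treated as replicates. Replicate numbers follow the sample descriptions; the numbers in some sample titles differ. The test script was tested on simulated data. Named places were the 3 strongest members per library, up to 4 per gene list by rank within 20 kb of a listed gene, and those at the limits; sequences were taken from the highest ranked members with the motif inside the 100 bases printed, a narrowing of the rule made after the data were seen; Cd79b, Vav1 and the third Bach2 place were named beyond that rule after their values were seen. Of 220 listed entries 219 matched the annotation, 2 through older symbols (Sykb, Mtap2). Python 3.11.15, numpy 2.4.6, pandas 2.3.3, scipy 1.17.1 and pysam 0.24.0 were used.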

Additional observations from a re-analysis of the deposited data

Results flagged for a closer look

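The ISRE share of members minus that of single-library regions off PU.1 went opposite ways on the 2 days, and this is the result set apart for a closer look. It was -3.65, -20.8 and -3.30 percentage points in day 3 replicates 1, 2 and 3, against 4.29, 2.91 and 2.40 points in day 1 replicates 1, 2 and 3. The means of -9.26 on day 3 and 3.20 on day 1 differ by -12.5 points; the exact permutation p of 0.1 is the smallest that 3 against 3 libraries allow. Day 3 replicate 2, with 24 members, carries the value farthest from 0, and day 1 replicate 1 has 7 members. The ISRE share of the regions off PU.1 was 18.7% on day 3 and 5.58% on day 1, while that of the members was 9.44% on day 3 and 8.77% on day 1.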

How the results depend on the processing

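Alternatives were recomputed for 33 results, 415 values in all; 386 kept their direction and side of the threshold (or, for counts, stayed within 1.5 times), though some changed in size; 21 turned and 8 counts moved. The number of members was 922 with the stronger 50% of the IRF4 lists and 1274 to 2156 when 1 library was left out. The mean EICE differences kept their sign in every alternative run: 7.26 to 19.0 points against regions off PU.1 (13.3 to 17.9 leaving out a library) and -24.6 to -13.2 against shared regions. The 7.26 points came with the stronger 50% of the IRF4 lists (exact sign-flip permutation p = 0.469, 0.75 adjusted). An EICE was then held by 0 of 2 members in day 3 replicate 2 and 0 of 1 in day 1 replicate 1. With the stronger 50% of the IRF4 lists the AP-1 difference became 9.65 against regions off PU.1 and 9.43 against shared regions; day 1 replicate 1 then has 1 member. ISRE against regions off PU.1 was 0.187 under that setting and -4.51 to 0.547 leaving out a library, and against shared regions -0.648 to 2.10. The PU.1 site against shared regions became 0.0431 with PU.1 within 100 bp, 0.634 with the stronger 50% of the PU.1 lists, 0.546 in libraries with at least 100 members (chosen after seeing the data) and -2.12 to 2.86 leaving out a library. The control sequence against regions off PU.1 was -0.132 in a 100 bp window, -3.13 with the stronger IRF4 peaks and -0.324 to 0.939 leaving out a library; against shared regions it was -0.440 in the 100 bp window, -0.113 in libraries with at least 100 members and -0.259 to 1.41 leaving out a library. The causes of these turns were not tested, apart from the single member at AP-1. Leaving out an IRF4 library leaves 5 differences, whose smallest exact p is 0.0625, so no such setting could pass the threshold. Nor could the day comparisons, with a smallest exact permutation p of 0.1. In libraries with at least 100 members the smallest exact sign-flip permutation p is 0.125. As no main result passed the adjusted threshold, keeping its side meant only staying above it. Replicate numbers are those of the sample descriptions; sample titles carry others for some libraries. The description numbers did not pair the IRF4 libraries: same-numbered deviations at 293 regions of all 6 libraries correlated at -0.0399, -0.107 and 0.161, and not every library correlated best with its own number. With the replicate block the day differences stayed 8.42 points for EICE and -5.87 for AP-1, with exact sign-flip permutation p = 0.25 each, the smallest 3 pairs allow. With 5 kb around genes, those with a member numbered 1222 of all protein-coding genes, 1 for interferon response, 2 for cytokine receptors and 1 for myeloid markers; with 50 kb they numbered 3211 of all, 8 for antigen presentation and 5 for germinal centre. Single peaks carry no read count, so the lists limit precision by the unknown depth and by the few members of day 3 replicate 2 and day 1 replicate 1.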

Other observations

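Some genes gathered several members, each called in 1 library only; these were chosen after their values were seen, and carry no test. Lpp, which encodes an adhesion protein, had 7 members within 20 kb of its 599 kb, beside 3 shared IRF4 regions and 8 stable PU.1 sites without IRF4. Smap2 had 4 members in 48.9 kb and 0 shared regions. Arid3b had 3 members in 46.4 kb, with 1 shared region and 0 stable PU.1 sites without IRF4, and Dock2, a lymphocyte migration gene, had 3 members in 471 kb with 0 shared regions.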
